A study of Homo sapiens with 12 samples.

Results

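The kinetochore and spindle checkpoint genes were a list of 44 genes, given by symbol, out of 59251 genes in the count table, and RNA-Seq measured them in HL-60 cells, an established human myeloid leukemia line. The line was cultured without drug (untreated) or for 48 h with 1 µM ATRA (all-trans retinoic acid, an agonist of retinoic acid receptors), with 1 µM palbociclib (an inhibitor of the kinases CDK4 and CDK6) or with both drugs at these doses (combination). Each of the 4 groups had 3 libraries, which the labels call biological replicates, and no vehicle is named for the untreated cells. By general knowledge of their transcription, 29 members were classed as cycling-dependent, with mRNA that peaks in late S, G2 or M phase, 10 as constitutive, with mRNA that varies little over the cycle, and 5 were left unclassed.

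The kinetochore is the protein assembly on the centromere that holds chromosomes to spindle microtubules. An inner layer binds the nucleosomes that carry the histone variant CENP-A, an outer layer grips microtubules, and unattached kinetochores start the spindle assembly checkpoint, which blocks the anaphase-promoting complex until every chromosome is attached. Many of these genes are transcribed mainly in dividing cells, where repressor and activator complexes act through short promoter elements, the CHR (cell cycle genes homology region) and the CCAAT box among them.

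Libraries held 12230923 to 18679544 counts, with the lowest totals in the combination group, and 3 counts corresponded to 0.161 to 0.245 CPM (counts scaled to library depth, here without and elsewhere with TMM factors). The members together took 0.329% ± 0.00404 (SD, n = 3) of all counts in untreated cells, 0.361% ± 0.00623 with ATRA, 0.103% ± 0.00288 with palbociclib and 0.0343% ± 0.000643 with the combination. Of 9 myeloid markers 6 were counted, and ELANE, PRTN3 and AZU1, which HL-60 cells are known for, were at 0 in all 12 libraries. The summed level of the myeloid markers ranged from 7453 to 7801 CPM in untreated cells, from 1030 to 1082 CPM with ATRA, from 4491 to 4614 CPM with palbociclib and from 1043 to 1095 CPM with the combination, and its part in the members' values was not tested. MPO made up most of the untreated sum, with means of 6517 CPM untreated, 293 with ATRA and 28.0 with the combination. CTSG, CEBPA and MYB were also lower in both groups with ATRA. SPI1 rose instead, from 302 CPM untreated to 463 with ATRA and 855 with the combination, and CD33 stood at 93.9, 77.9 and 99.8. Lymphoid markers summed to 13.1 to 27.0 CPM, with MS4A1 at 0 throughout, erythroid markers to 0 to 1.32 CPM and epithelial and stromal markers to 0 to 0.466 CPM.

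SKA1, a microtubule-binding subunit of the SKA complex, had 0 counts in all 12 libraries, so 43 of the 44 members passed the filter on low counts and were tested. SKA1 is listed with 7 exons on chromosome 18 and 7 on another contig, as are CENPN (13 and 13), CENPP (13 and 9) and SPC25 (8 and 7). Of 4379 genes listed also on alternate or patch contigs 65.9% had no count in any library, against 51.5% of the 54872 other genes, and the 3 myeloid markers at 0 were among the former. Whether reads of SKA1 were lost in counting was not tested.

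The promoters of the cycling-dependent members are shown first, since the CHR letters in them set the classes side by side in sequence. RefSeq start sites on GRCh38.p14 gave a window of 300 bases (250 before the start site and 50 from it on) for 36 of the 44 members, and none was used for CENPH, CENPM, CENPL, KNL1, KNTC1, BUB3, TTK and BIRC5. The windows were searched on both strands for the CHR (TTTGAA or TTCGAA), the CCAAT box (CCAAT) and E2F sites (TTTCCCGC, TTTGGCGC or TTTCGCGC). The CHR letters lay in 16 of 24 cycling-dependent genes (66.7%), 2 of 9 constitutive genes (22.2%) and 1 of 3 unclassed genes, against 19.5% of all 27305 genes with a window. Within 50 bases of the start site they lay in 16 of 24 cycling-dependent genes and 0 of 9 constitutive genes, against 6.24% of all genes. The distance of 50 bases was chosen after the positions were seen. The sites below carry the CHR letters in capitals with 10 bases on each side, written 5′ to 3′ on the strand of the gene, and TTCAAA is TTTGAA read from the other strand. In NDC80 another match, left in lower case, follows directly.
BUB1B (chr15:40161036-40161061, plus strand): gaccgttaaaTTTGAAacttggcggc
NDC80 (chr18:2571544-2571569, plus strand): ggcggagaatTTCAAAttcgaacggc
CENPA (chr2:26786028-26786053, plus strand): gagcgagcgaTTTGAAcgcgagcggc
BUB1 (chr2:110678047-110678072, minus strand): gcgcggggtaTTCGAAtcggcggcgg
MAD2L1 (chr4:120066809-120066834, minus strand): cgtcgttactTTTGAAacgcttggcg
CDCA8 (chr1:37692483-37692508, plus strand): gactgtggagTTTGAAttgggtggcg
SGO1 (chr3:20186194-20186219, minus strand): ggcggaaaatTTCGAAtgtggcggcg
CENPN (chr16:81007207-81007232, plus strand): aattggtggcTTTGAAggcgcggcga
ZW10 (chr11:113773901-113773926, minus strand): agcaacgaacTTTGAAaacaactaag
CENPC (chr4:67545578-67545603, minus strand): tgtctccgggTTCAAAcccaggcaca

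The first base of the CHR letters in capitals lay 23 bases before the start site in BUB1B and CDCA8 and 18 before it in CENPA. It lay 3 bases before the start site in NDC80 and SGO1. In BUB1, CENPN and MAD2L1 it was not before the start site but base 2, 4 and 25 from the start site on. In the constitutive ZW10 and CENPC it lay 224 and 90 bases before the start site. CENPC and CENPP, the constitutive members that fell least and most with the combination, are shown with the 120 bases before their start sites, where capitals mark the CHR letters (TTCAAA) and the CCAAT letters (CCAAT, or ATTGG on the other strand).
CENPC (chr4:67545504-67545623, minus strand): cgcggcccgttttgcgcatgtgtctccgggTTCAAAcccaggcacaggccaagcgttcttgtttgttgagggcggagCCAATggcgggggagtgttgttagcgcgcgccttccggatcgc
CENPP (chr9:92325348-92325467, plus strand): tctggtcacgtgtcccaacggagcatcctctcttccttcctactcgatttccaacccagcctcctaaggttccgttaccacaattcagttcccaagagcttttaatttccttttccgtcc
No searched letters lay in the CENPP stretch, and the CCAAT letters for which CENPP is counted among constitutive genes lay in the window of another of its start sites (chr9:92600007-92600306). The CCAAT letters were found in 16 of 24 cycling-dependent and 6 of 9 constitutive genes, the same share of 66.7%, against 39.7% of all genes, and E2F letters in 2 of 24 and 1 of 9, against 3.30%. A match of letters is a description of the sequence only. Cycling-dependent genes without CHR letters in their window (CENPI, CENPK, CENPU, CENPE, DSN1, SPC24, AURKB and SGO2) had log2 fold changes with the combination of -3.11 to -6.29, and those with them of -1.96 to -6.49, SKA1 not being measured.

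With the combination, the 43 tested members were all lower than in untreated cells, by 1.71-fold for CENPC to 102-fold for CENPM in mean CPM, with SPC25 known only as a lower bound of its fall. CENPM itself had only 2 to 6 counts per combination library. Fold changes are given as log2 values with standard errors (SE) from edgeR, and a gene was called higher or lower at an adjusted p under 0.05. Of all 13318 tested genes 40.7% were called lower and 41.0% higher in that comparison. The median log2 fold change was -3.54 over the 43 members and 0.02 over all tested genes. Cycling-dependent members had a median of -4.97 and constitutive members one of -1.25 (-1.96 with unclassed members joined). The 19 members that fell at least 16-fold were all cycling-dependent, 1 cycling-dependent member (CENPN) fell less than 4-fold, and 2 constitutive members (CENPP and SKA2) fell more than that. In such bulk samples, fewer cells in S, G2 or M phase and less RNA per cell cannot be told apart.

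Palbociclib alone lowered 42 of the 43 members and raised 1, MAD1L1, against 27.9% and 28.3% of all genes called lower and higher. The median was -1.73 over the members, -2.51 over the cycling-dependent and -0.66 over the constitutive ones, beside 0.02 over all genes. ATRA alone gave no such common direction. It raised 18 members, lowered 10 and left 15 uncalled, against 32.1% and 35.5% of all genes called higher and lower, and the medians were 0.19 for cycling-dependent and -0.03 for constitutive members, beside -0.03 over all genes. The former was 0.062 with a minimum of 10 counts in every library and 0.067 with unclassed members joined to the class, and the latter was 0.040 without members on more than 1 contig. Some calls with ATRA changed when 1 library was left out. CENPK lost its call without untreated replicate 1 or 2 or any 1 ATRA replicate (0.17 to 0.23), SPC24 without untreated replicate 2 or 3 or any 1 ATRA replicate (0.11 to 0.18) and CENPW without untreated replicate 1 or 2 or ATRA replicate 2 or 3 (-0.17 to -0.14). CENPQ lost it without untreated replicate 1 or ATRA replicate 3 (0.19 and 0.16), DSN1 without untreated or ATRA replicate 1 (-0.17 and -0.16), PMF1 without untreated replicate 1 or ATRA replicate 2 (-0.24 and -0.28) and SPC25 without untreated or ATRA replicate 2 (0.41 and 0.42). ZW10 (-0.14 without untreated replicate 3), KNTC1 (-0.16 without ATRA replicate 2), BIRC5 (-0.13 without untreated replicate 3) and BUB1B (-0.13 to -0.10 without untreated replicate 1, palbociclib replicate 1 or 2 or any 1 combination replicate) gained a call that way. With all libraries kept, CENPW (-0.15 to -0.13) and DSN1 (-0.16 to -0.14) also lost their call with DESeq2's size factors or Wald test, library size alone or only the groups compared, CENPK without a filter or with the replicate block (0.19 and 0.21) and SPC24 without a filter (0.16), while BUB3 gained one with only the groups compared (0.09). The comparisons of each treatment with untreated cells share the untreated libraries.

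**Figure D1:**
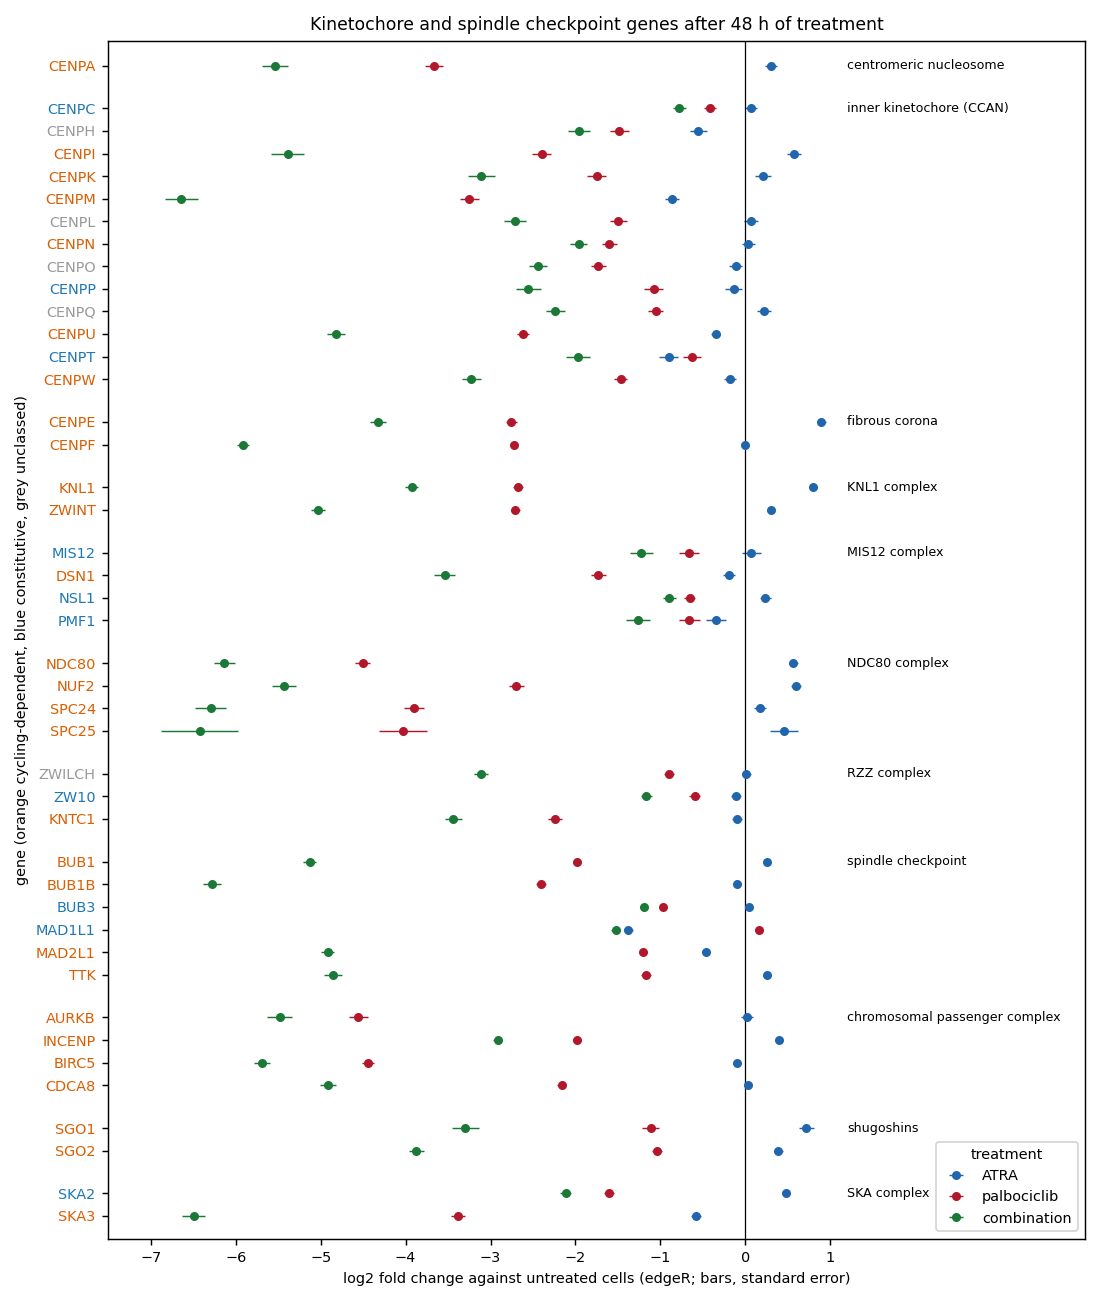
Log2 fold change (horizontal axis, with standard errors as bars) of the 43 tested members against untreated cells, by role (rows), for ATRA (blue), palbociclib (red) and the combination (green), with 3 libraries a group. The ATRA points lie between -1.38 and 0.90, and the combination points lie left of 0 for every gene, between -6.64 and -0.78. The point of SPC25 for the combination is a fitted value near the counting floor.

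**Figure D2:**
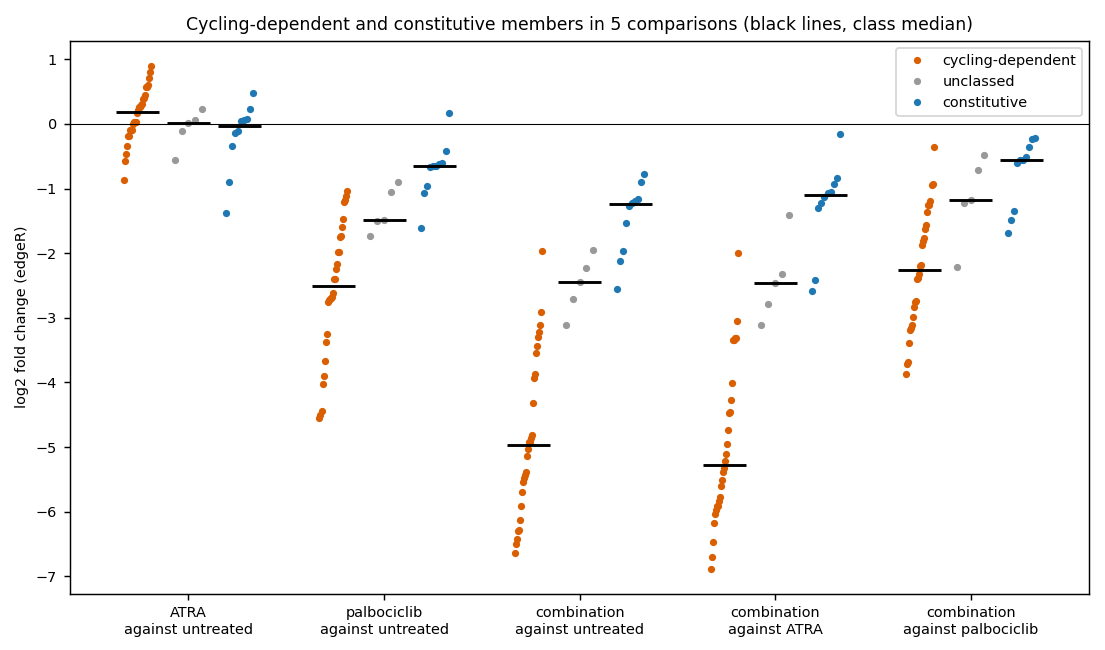
Log2 fold change (vertical axis) of the cycling-dependent (orange), unclassed (grey) and constitutive (blue) members in 5 comparisons, each point a gene and each black line a class median. In the combination against untreated cells the medians were -4.97, -2.44 and -1.25.

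At the base of the kinetochore, CENPA encodes the histone H3 variant that marks the centromere. CENPA measured 40.4, 38.1 and 36.7 CPM in untreated cells, 45.98, 48.2 and 47.8 with ATRA, 3.22, 3.36 and 2.46 with palbociclib and 0.458, 0.891 and 1.07 with the combination. ATRA libraries lay above all untreated ones, while palbociclib and combination libraries lay below them without overlap. The log2 fold change was 0.30 ± 0.07 (SE) with ATRA, -3.67 ± 0.11 with palbociclib and -5.54 ± 0.15 with the combination, with adjusted p of 0.00012, 4.2e-33 and 1.3e-34 in the quasi-likelihood test of edgeR, Benjamini-Hochberg adjusted.

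The inner kinetochore (the constitutive centromere-associated network, CCAN) bridges CENP-A nucleosomes to the outer layer, and its 13 members ranged from -6.64 to -0.78 with the combination. CENPM, a small subunit of the CENP-H/I/K/M group, measured 31.9, 33.3 and 33.5 CPM untreated, 18.98, 18.7 and 16.6 with ATRA, 3.58, 3.61 and 3.16 with palbociclib and 0.183, 0.535 and 0.248 with the combination, a log2 fold change of -6.64 ± 0.19 (adjusted p = 1.3e-33, quasi-likelihood test of edgeR, Benjamini-Hochberg adjusted). Its 4 groups did not overlap, and its fitted change was the lowest of the list, but that of SPC25, near the counting floor, was -6.43 and went to -9.53 without combination replicate 2. CENPM held 2, 6 and 3 counts with the combination, and its change lay between -7.20 and -6.39 when 1 library was left out. CENPC, which binds the nucleosome and the MIS12 complex, measured 34.02, 35.5 and 33.8 CPM untreated, 34.3, 34.9 and 38.7 with ATRA, 24.7, 25.8 and 27.2 with palbociclib and 20.6, 22.5 and 17.4 with the combination. Untreated and ATRA libraries of CENPC overlapped, and its log2 fold change with the combination, -0.78 ± 0.08, was the smallest of the list. CENPT, a histone-fold protein that recruits the NDC80 complex, measured 14.6, 14.5 and 16.5 CPM untreated, 7.64, 7.99 and 8.78 with ATRA, 10.1, 9.72 and 9.83 with palbociclib and 3.85, 3.83 and 3.97 with the combination. The log2 fold change of CENPT was -0.90 ± 0.11 with ATRA and -0.62 ± 0.11 with palbociclib. A CENPT exon overlaps an exon of NUTF2 on the other strand, with 15972 counts in all against 1843 for CENPT, and whether strand was used in counting is not stated. CENPP, of the CENP-O group, measured 14.8, 16.9 and 15.3 CPM untreated, 13.7, 14.5 and 14.5 with ATRA, 6.59, 8.31 and 7.49 with palbociclib and 3.02, 2.41 and 2.56 with the combination, a log2 fold change of -2.55 ± 0.15 with both drugs that was the lowest among constitutive members.

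Subunits of the same CCAN group did not fall alike with the combination. CENPH, CENPI, CENPK and CENPM, which form 1 group, changed by -1.96 ± 0.13, -5.39 ± 0.20, -3.11 ± 0.16 and -6.64 ± 0.19. The change of CENPI lay between -6.00 and -5.09 when 1 library was left out. In the CENP-O group, CENPO, CENPP, CENPQ and CENPU changed by -2.44 ± 0.11, -2.55 ± 0.15, -2.24 ± 0.12 and -4.82 ± 0.10. CENPL and CENPN, which pair with each other, changed by -2.72 ± 0.13 and -1.96 ± 0.10, and CENPW, the partner of CENPT, by -3.23 ± 0.11. Exons of CENPO and CENPU also overlap genes on the other strand (ADCY3 and PRIMPOL).

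The fibrous corona and the KNL1 complex held the members that ATRA alone raised most. CENPE, a kinesin that carries chromosomes along microtubules, measured 76.1, 89.4 and 82.7 CPM untreated, 150.4, 161 and 151 with ATRA, 11.8, 12.96 and 12.1 with palbociclib and 3.94, 4.64 and 3.801 with the combination. The ATRA libraries of CENPE lay above and the palbociclib and combination libraries below all untreated ones. KNL1, the scaffold on which BUB proteins assemble, measured 89.2, 87.7 and 99.9 CPM untreated, 163, 160.0 and 159.6 with ATRA, 14.2, 14.3 and 14.8 with palbociclib and 6.599, 5.26 and 6.28 with the combination, without overlap between any groups. With ATRA, CENPE rose by 0.90 ± 0.05 and KNL1 by 0.80 ± 0.05 (adjusted p = 3.9e-22 and 3.7e-21, quasi-likelihood test of edgeR, Benjamini-Hochberg adjusted). CENPF, a corona protein that binds dynein regulators, measured 344, 362 and 378 CPM untreated, 366, 365 and 351 with ATRA, 50.2, 58.1 and 56.6 with palbociclib and 5.87, 6.42 and 5.702 with the combination. ATRA and untreated libraries of CENPF overlapped, and its log2 fold change with the combination was -5.91 ± 0.07. ZWINT, the partner of KNL1, measured 136, 146 and 136 CPM untreated, 164, 171 and 179 with ATRA, 22.6, 19.3 and 21.9 with palbociclib and 4.3996, 4.19 and 4.21 with the combination, with a log2 fold change of -5.03 ± 0.08 with both drugs beside -3.93 ± 0.08 for KNL1.

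In the MIS12 complex, the link between the inner layer and the NDC80 complex, 3 subunits are constitutive and DSN1 is cycling-dependent. MIS12 measured 15.5, 15.5 and 13.9 CPM untreated, 16.9, 14.4 and 15.7 with ATRA, 10.7, 8.74 and 8.602 with palbociclib and 6.69, 4.37 and 8.02 with the combination. NSL1 measured 54.3, 50.4 and 53.1 CPM untreated, 60.6, 64.9 and 60.4 with ATRA, 31.9, 31.96 and 36.3 with palbociclib and 31.1, 23.8 and 30.1 with the combination. PMF1 measured 14.7, 12.2 and 11.9 CPM untreated, 11.7, 9.39 and 9.67 with ATRA, 7.105, 8.43 and 9.19 with palbociclib and 5.77, 5.35 and 5.04 with the combination. Combination libraries of these 3 genes lay below untreated ones by less than 3-fold in the mean, at -1.22 ± 0.14, -0.89 ± 0.07 and -1.27 ± 0.14. DSN1 measured 33.8, 33.3 and 32.04 CPM untreated, 27.9, 29.7 and 29.4 with ATRA, 9.698, 11.1 and 9.13 with palbociclib and 3.21, 2.496 and 2.81 with the combination, a log2 fold change of -3.54 ± 0.12 with no overlap between untreated, palbociclib and combination libraries. A MIS12 exon overlaps DERL2 on the other strand, and PMF1 shares 4 exons with the readthrough gene PMF1-BGLAP, which had 4 counts in all.

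The NDC80 complex, the main microtubule-binding unit of the outer kinetochore, is encoded by 4 cycling-dependent genes that fell together. NDC80 measured 69.1, 72.99 and 69.2 CPM untreated, 102, 102 and 108 with ATRA, 2.44, 3.18 and 3.75 with palbociclib and 1.28, 0.802 and 0.909 with the combination. NUF2 measured 39.9, 47.2 and 42.8 CPM untreated, 63.4, 66.3 and 66.8 with ATRA, 6.12, 7.27 and 6.73 with palbociclib and 1.37, 0.891 and 0.744 with the combination. In both genes the ATRA libraries were the highest, and no groups overlapped. NDC80, NUF2 and SPC24 changed by -6.14 ± 0.13, -5.43 ± 0.14 and -6.29 ± 0.18 with the combination (adjusted p = 2.4e-40, 1.7e-35 and 1.1e-33, quasi-likelihood test of edgeR, Benjamini-Hochberg adjusted). SPC24 held 2, 7 and 7 counts with the combination, and its change lay between -6.55 and -5.94 when 1 library was left out. SPC25 measured 6.07, 5.39 and 5.63 CPM untreated, 7.704, 8.16 and 7.57 with ATRA, 0.363, 0.183 and 0.468 with palbociclib and 0, 0.178 and 0 with the combination. The combination libraries of SPC25 held at most 2 counts, so it was at least 21.6-fold lower than in untreated cells and at least 29.7-fold lower than with ATRA, against a floor of 3 counts per library (0.263 CPM). Against palbociclib, whose libraries held 7, 3 and 8 counts, the bound was only 1.28-fold. With SPC25 at its bound against untreated cells, the median of the cycling-dependent members with the combination was -4.92. Per length, NDC80 was at 33.1 ± 1.05 RPKM (CPM divided by the gene length in kilobases, SD, n = 3) in untreated cells, NUF2 at 19.7 ± 1.68, SPC24 at 14.2 ± 1.15 and SPC25 at 1.09 ± 0.0658, with SPC25 divided by 5218 annotated exon bases and also listed on a second contig.

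The RZZ complex recruits dynein and MAD proteins to unattached kinetochores. ZW10, which is constitutive, measured 50.004, 50.3 and 47.02 CPM untreated, 46.8, 43.5 and 46.4 with ATRA, 32.9, 32.9 and 31.4 with palbociclib and 22.3, 21.9 and 21.6 with the combination. KNTC1, its cycling-dependent partner, measured 45.2, 49.4 and 50.8 CPM untreated, 43.3, 49.1 and 43.5 with ATRA, 9.91, 10.4 and 10.4 with palbociclib and 4.58, 4.55 and 4.297 with the combination. Both were lower with each palbociclib treatment without overlap, at -1.16 ± 0.07 for ZW10 and -3.44 ± 0.10 for KNTC1 with the combination. The third subunit, ZWILCH, was at -0.89 ± 0.06 with palbociclib and -3.11 ± 0.08 with both drugs.

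The spindle checkpoint kinases and their partners separated by drug. TTK (MPS1), the kinase that starts checkpoint signalling, measured 72.8, 75.8 and 69.9 CPM untreated, 85.5, 87.6 and 87.6 with ATRA, 29.6, 35.1 and 32.6 with palbociclib and 1.92, 2.76 and 2.81 with the combination. BUB1B (BUBR1), a subunit of the mitotic checkpoint complex, measured 128, 136 and 133 CPM untreated, 119, 125 and 126 with ATRA, 23.3, 27.6 and 24.2 with palbociclib and 1.47, 2.32 and 1.32 with the combination. For both genes the palbociclib libraries lay between the untreated and the combination libraries without overlap. TTK changed by -1.17 ± 0.06 with palbociclib and by -4.85 ± 0.10 with the combination, and BUB1B by -2.41 ± 0.06 and -6.28 ± 0.10. Between the combination and palbociclib alone the differences were -3.68 ± 0.12 for TTK, -3.72 ± 0.08 for MAD2L1, -3.87 ± 0.14 for BUB1B and -3.15 ± 0.10 for BUB1 (adjusted p = 1.5e-31, 1.1e-38, 6.2e-30 and 2.2e-32, quasi-likelihood test of edgeR, Benjamini-Hochberg adjusted).

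BUB3, the constitutive partner of BUB1 and BUB1B, measured 272, 277 and 267 CPM untreated, 262, 285 and 292 with ATRA, 138, 140.5 and 139.7 with palbociclib and 120.3, 116 and 122 with the combination. Palbociclib libraries of BUB3 were near the combination libraries, with a difference of -0.22 ± 0.04, and untreated and ATRA libraries overlapped. MAD1L1 (MAD1), which holds MAD2 at unattached kinetochores, measured 119, 117 and 114 CPM untreated, 42.96, 47.5 and 44.1 with ATRA, 132, 129.6 and 129 with palbociclib and 36.2, 41.3 and 43.5 with the combination. Both groups with ATRA were low and overlapped each other, while palbociclib libraries lay above all untreated ones. The log2 fold change of MAD1L1 was -1.38 ± 0.05 with ATRA, 0.16 ± 0.04 with palbociclib and -1.53 ± 0.05 with the combination (adjusted p = 4.6e-29, 0.0017 and 5.9e-30, quasi-likelihood test of edgeR, Benjamini-Hochberg adjusted). Its difference of -0.15 ± 0.06 between the combination and ATRA (adjusted p = 0.025, quasi-likelihood test of edgeR, Benjamini-Hochberg adjusted) was no longer called without ATRA replicate 2 (-0.11) or without combination replicate 1 (-0.08).

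**Figure D3:**
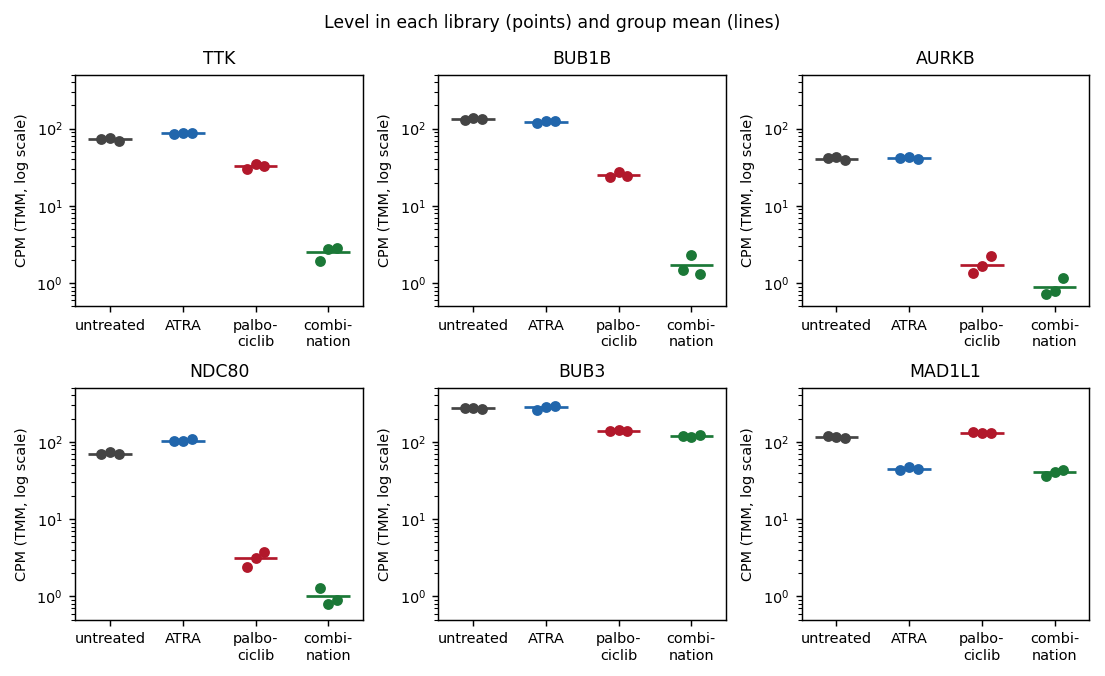
Level of 6 members in CPM (after TMM scaling, log scale, the same axis in each panel) in each of the 12 libraries (points) with group means (lines). TTK and BUB1B step down from palbociclib to the combination, AURKB and NDC80 are already below 4 CPM with palbociclib, BUB3 moves by about 2-fold, and MAD1L1 is low in both groups with ATRA.

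The chromosomal passenger complex corrects wrong attachments through the kinase Aurora B. AURKB measured 40.99, 42.4 and 39.1 CPM untreated, 41.2, 42.3 and 40.8 with ATRA, 1.35, 1.65 and 2.22 with palbociclib and 0.733, 0.802 and 1.16 with the combination. BIRC5 (survivin), which brings the complex to the centromere, measured 153, 149 and 139.6 CPM untreated, 135, 141 and 138 with ATRA, 6.43, 5.81 and 8.08 with palbociclib and 2.66, 3.57 and 2.31 with the combination. In both genes untreated and ATRA libraries overlapped, and palbociclib alone gave 4.26% and 4.602% of the untreated mean. INCENP, the scaffold of the complex, measured 166, 162 and 169 CPM untreated, 218, 220.2 and 215 with ATRA, 41.4, 42.04 and 42.8 with palbociclib and 21.8, 20.7 and 23.2 with the combination. The log2 fold change with both drugs was -2.92 ± 0.05 for INCENP, -5.48 ± 0.15 for AURKB, -5.69 ± 0.09 for BIRC5 and -4.92 ± 0.09 for CDCA8 (borealin). In cells given both drugs INCENP stood at 5.27 RPKM per length, beside 0.611 for AURKB, 1.08 for BIRC5 and 1.41 for CDCA8.

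The shugoshins protect centromeric cohesion. SGO1 measured 19.5, 15.7 and 16.6 CPM untreated, 27.1, 29.4 and 28.7 with ATRA, 8.71, 7.64 and 7.49 with palbociclib and 2.11, 1.605 and 1.57 with the combination. SGO2 measured 69.2, 68.7 and 69.7 CPM untreated, 87.8, 91.1 and 92.8 with ATRA, 31.9, 36.1 and 33.2 with palbociclib and 5.13, 4.903 and 4.13 with the combination. Both genes were highest with ATRA, and neither showed overlap between groups. They changed by -1.12 ± 0.10 and -1.04 ± 0.06 with palbociclib and by -3.30 ± 0.16 and -3.88 ± 0.09 with the combination.

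The SKA complex stabilizes the grip of kinetochores on microtubules. SKA3 measured 73.3, 74.3 and 68.03 CPM untreated, 49.4, 49.6 and 45.2 with ATRA, 6.53, 7.64 and 6.55 with palbociclib and 1.0999, 0.535 and 0.744 with the combination. SKA2, classed as constitutive, measured 91.7, 86.9 and 92.02 CPM untreated, 124, 126 and 126 with ATRA, 30.96, 28.4 and 29.4 with palbociclib and 17.7, 21.04 and 23.5 with the combination. ATRA moved the pair in opposite directions, SKA3 by -0.58 ± 0.06 and SKA2 by 0.48 ± 0.05, and with the combination both were lower, at -6.49 ± 0.13 and -2.12 ± 0.07.

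Adding palbociclib to ATRA lowered all 43 tested members (combination against ATRA, where 32.8% of all genes were called lower and 36.9% higher). The medians were -5.27 for cycling-dependent and -1.10 for constitutive members, beside 0.04 over all genes. Adding ATRA to palbociclib also lowered all 43 (combination against palbociclib, where 39.5% of all genes were called lower and 39.1% higher). The medians were -2.26 for cycling-dependent and -0.56 for constitutive members, beside 0.00 over all genes. With library size alone as the scaling, the constitutive median was -0.84 beside -0.28 over all genes. The 18 members that ATRA raised by itself were among the 43. SGO1 is one, at 0.72 ± 0.09 with ATRA alone and -2.18 ± 0.18 when ATRA was added to palbociclib. In the comparison with palbociclib, CENPN, NSL1 and SPC25 each lost their call when 1 library was left out: CENPN was at -0.23 without palbociclib replicate 2, NSL1 at -0.13 without combination replicate 2, and SPC25 at -1.90 and -1.83 without combination replicate 1 or 3, while it was at -5.50 without combination replicate 2.

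The interaction compares the change with both drugs with the sum of the single-drug changes on the log2 scale. It was below 0 and called for 41 of 43 members, with none above, against 27.0% of all genes called below and 24.5% above, and the median was -1.62 beside -0.02 over all genes. Cycling-dependent members had a median of -2.53 and all 28 tested were called. Constitutive members had a median of -0.45 and 9 of 10 were called. The 2 members not called were CENPH (0.08 ± 0.18, adjusted p = 0.74, quasi-likelihood test of edgeR, Benjamini-Hochberg adjusted) and PMF1 (-0.27 ± 0.19, adjusted p = 0.25). With library size alone as the scaling, the constitutive median was -0.77 beside -0.34 over all genes, and PMF1 was called (-0.59). CENPT (-0.44 ± 0.19) lost its call without 8 of the 12 libraries in turn (-0.46 to -0.39: untreated replicates 1 and 2, ATRA replicate 3, palbociclib replicates 1 and 3 and every combination replicate), and CENPN (-0.40 ± 0.14) without palbociclib replicate 2 (-0.26). Among the lowest interactions were those of TTK (-3.94 ± 0.13), BUB1B (-3.77 ± 0.15), CENPI (-3.57 ± 0.29) and BUB1 (-3.41 ± 0.11), and that of CENPI lay between -4.18 (without combination replicate 1) and -3.27 (without combination replicate 2) when 1 library was left out.

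**Figure D4:**
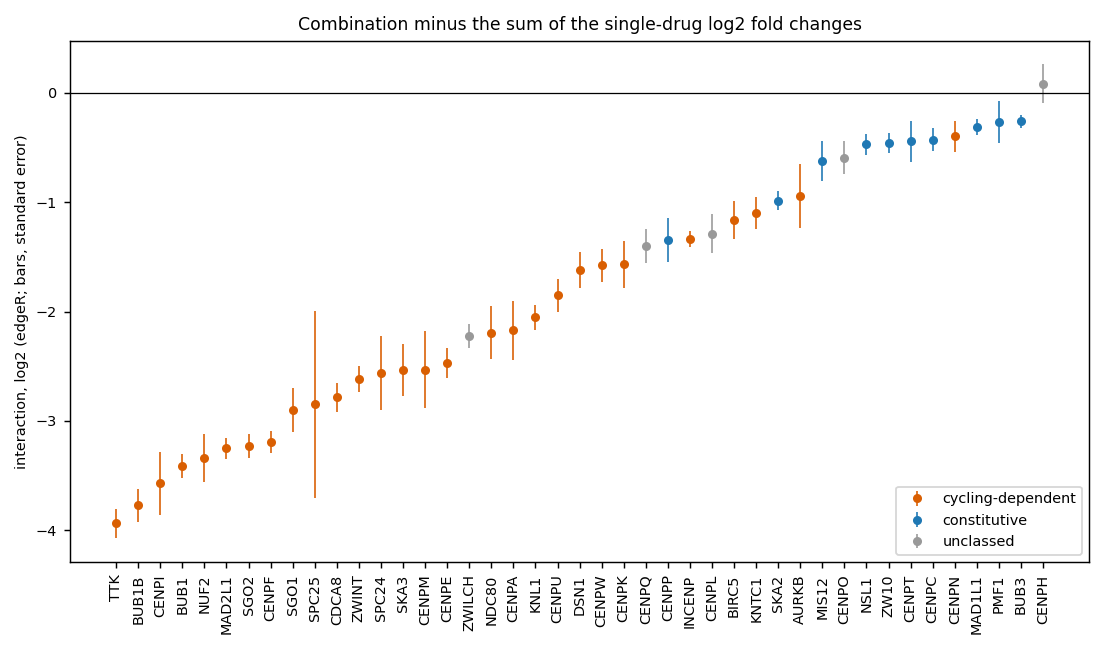
Interaction on the log2 scale (vertical axis, with standard errors as bars) of the 43 tested members, sorted from TTK at -3.94 to CENPH at 0.08, coloured by class. Constitutive members (blue) lie mostly at the right, between -1.35 and -0.26.

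How much of the change was present with palbociclib alone differed among members. The log2 fold change with palbociclib was 83.1% of that with both drugs for AURKB, 81.4% for CENPN, 77.98% for BIRC5 and 73.4% for NDC80, the 4 highest of the cycling-dependent members. The 4 lowest of that class were at 24.1% for TTK, 24.4% for MAD2L1, 26.8% for SGO2 and 33.8% for SGO1. These shares are descriptions. The interactions were -0.95 ± 0.29 for AURKB, -1.16 ± 0.17 for BIRC5, -3.23 ± 0.11 for SGO2 and -3.25 ± 0.10 for MAD2L1.

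In 7 pairs from the same complex, the cycling-dependent member declined relative to its constitutive partner with the combination, in ratios of counts per base within a library that no scaling between libraries can move. The pairs were chosen after values were seen, so the ratios are descriptions, and among inner kinetochore genes the cycling-dependent CENPN (-1.96) fell less than the constitutive CENPP (-2.55). BUB1 stood at 1.07 ± 0.0253 (SD, n = 3) times BUB3 in untreated cells and at 0.0695 ± 0.0153 with the combination, 6.50% of the untreated ratio. BUB1B against BUB3 came to 2.95% of its untreated ratio, SKA3 against SKA2 to 4.98% and MAD2L1 against MAD1L1 to 9.49%. KNTC1 against ZW10 came to 20.6%, DSN1 against MIS12 to 21.1% and CENPW against CENPT to 41.3%. In each pair the combination libraries lay below those of every other group. ATRA alone raised MAD2L1 against MAD1L1 to 188% of its untreated ratio (log2 fold changes -1.38 for MAD1L1 and -0.47 for MAD2L1) and CENPW against CENPT to 164.6%, and lowered SKA3 against SKA2 to 48.0%. An exact two-sided permutation test of 3 against 3 libraries cannot go below p = 0.1.

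**Figure D5:**
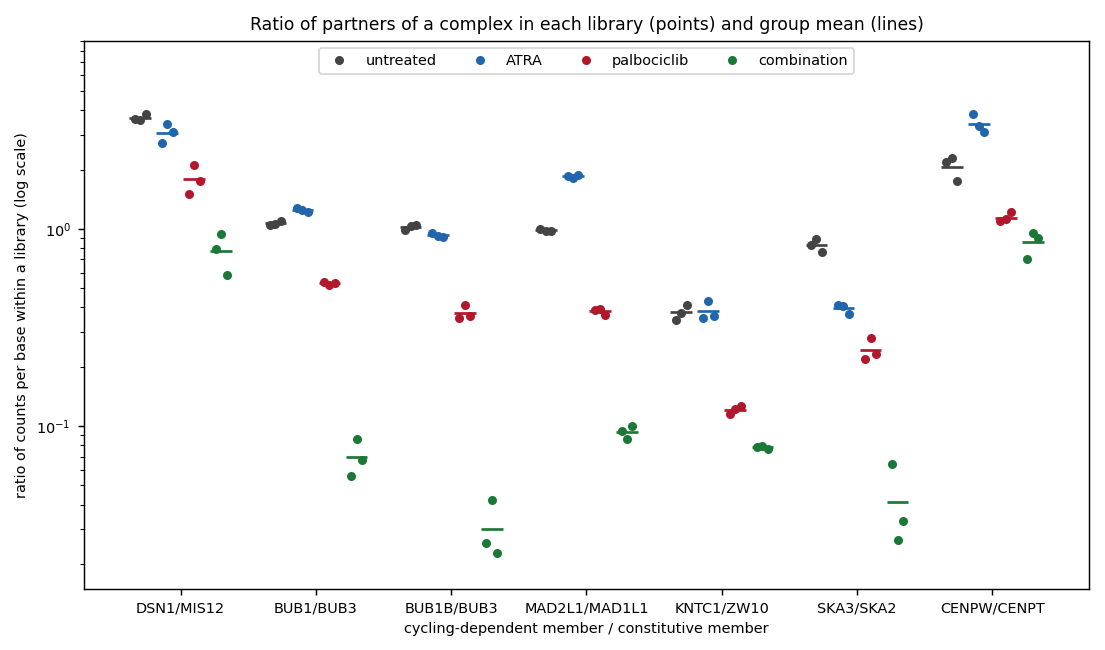
Ratio of counts per base (vertical axis, log scale) of a cycling-dependent to a constitutive member of the same complex in each library (points) with group means (lines), for 7 pairs and 4 groups. The combination libraries (green) are lowest in every pair, from 2.95% to 41.3% of the untreated mean.

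Levels per length in untreated cells ranged from 1.09 ± 0.0658 RPKM (SD, n = 3) for SPC25 to 67.7 ± 2.75 for ZWINT, followed by 55.7 ± 2.58 for BIRC5 and 42.9 ± 1.38 for CDCA8. With the combination the order changed, and the highest were the constitutive BUB3 at 15.5 ± 0.445 RPKM, MAD1L1 at 12.02 ± 1.12, ZW10 at 7.63 ± 0.123 and SKA2 at 6.901 ± 0.966. These lengths are those of all annotated exons joined, which can exceed the length of the transcript expressed.

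The other genes of the pathway were 44 genes in 5 lists of general knowledge, and all were tested. With the combination 30 were lower, 9 higher and 5 not called, against 40.7% of all genes called lower and 41.0% higher, and the median was -0.81 beside 0.02 over all genes. The 5 genes of CENP-A loading were all lower, led by HJURP, the chaperone of CENP-A (60.2, 65.9 and 65.1 CPM untreated and 0.458, 0.802 and 0.413 with the combination, -6.82 ± 0.14). Of 4 other centromere proteins 3 were lower, led by CENPX, a histone-fold protein (-3.30 ± 0.09). Of 9 checkpoint accessories and targets 8 were lower, led by CDC20, the activator of the anaphase-promoting complex that the checkpoint blocks (246, 248 and 247 CPM untreated and 3.48, 2.94 and 5.12 with the combination, -5.99 ± 0.08). The remaining one, MAD2L1BP (p31comet), which helps to silence the checkpoint, was higher, at 22.5, 23.6 and 22.5 CPM untreated and 43.2, 47.7 and 50.4 with the combination (1.05 ± 0.07).

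Subunits of the anaphase-promoting complex moved less: of 15 genes 9 were lower and 3 higher, against the same 40.7% and 41.0% of all genes, with a median of -0.54. The extremes were ANAPC1, its scaffold (-2.01 ± 0.05), and CDC26, a small subunit (0.51 ± 0.09). Among 11 microtubule partners of the kinetochore 5 were higher and 5 lower, near those shares of all genes, with a median of 0.06. The extremes there were SPAG5 (astrin), a spindle protein at attached kinetochores (-4.80 ± 0.09), and CLIP1 (CLIP-170), a protein of growing microtubule ends (16.5, 17.3 and 15.3 CPM untreated and 69.1, 65.8 and 61.6 with the combination, 2.00 ± 0.07).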

How the data were processed

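RNA-Seq libraries of 12 HL-60 cultures (4 groups of 3) were made with a directional kit. Per the labels and the study's methods, reads were trimmed with Trimmomatic 0.33 and aligned with STAR 2.7.11a to hg38 under the NCBI RefSeq annotation. The authors deposited a table of raw counts per gene, not normalized, beside gene lengths. Its columns are laid out as by featureCounts, while the methods name RSEM. How strand, several contigs and overlapping genes were treated in counting is not given in the sources used here.

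The counts were used as deposited. In edgeR 4.0.16 under R 4.3.3, filterByExpr kept 13318 of 59251 genes, 31154 having no count, and TMM scaled the libraries. The quasi-likelihood test was fitted to all 4 groups at once (8 residual degrees of freedom, common biological coefficient of variation 3.70%), for 5 comparisons and the interaction. P-values were adjusted by Benjamini-Hochberg across the genes tested, with a threshold of 0.05. SE was the log2 fold change divided by the square root of F. Replicates differed by more than sampling noise (chi-square over degrees of freedom 1.85 to 6.84). The SE includes the spread between replicates, whereas the floors cover counting error only.

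The members and lists were chosen with earlier results of these data known. Levels by library are given, in each role, for the members with the largest and the smallest change with the combination, for every constitutive member and for any member not called. CENPA has its role alone. NDC80, TTK and AURKB were added after their values were seen. Of other pathway genes the largest rise and fall in each list are named. Promoter windows came from RefSeq (GRCh38.p14). Alternatives were the Wald test of DESeq2 1.42.0, its size factors, scaling by library size, a stricter filter (10 counts or more per library), an open filter, a replicate block, fits to the compared groups only, unclassed members joined to a class, each library left out and, added after seeing the data, members on more than 1 contig left out.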

Additional observations from a re-analysis of the deposited data

Results flagged for a closer look

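The interaction of ATRA and palbociclib differs from 0 where the effect of ATRA differs between cells with and without palbociclib, and 41 of 43 tested members passed its test in edgeR. Of the 44 other pathway genes 23 were called below 0 and 10 above (1 above with library size alone as the scaling), against 27.0% and 24.5% of all genes, and the 8 of them named in the text are given below. Values are log2 interactions with SE.

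For the centromere and inner kinetochore they were CENPA -2.17 ± 0.27, CENPC -0.43 ± 0.11, CENPI -3.57 ± 0.29, CENPK -1.57 ± 0.21, CENPM -2.53 ± 0.35, CENPL -1.29 ± 0.17, CENPN -0.40 ± 0.14, CENPO -0.60 ± 0.15, CENPP -1.35 ± 0.20, CENPQ -1.40 ± 0.15, CENPU -1.85 ± 0.15, CENPT -0.44 ± 0.19 and CENPW -1.58 ± 0.15. For the corona, KNL1, MIS12 and NDC80 complexes they were CENPE -2.47 ± 0.14, CENPF -3.19 ± 0.10, KNL1 -2.05 ± 0.12, ZWINT -2.62 ± 0.12, MIS12 -0.63 ± 0.18, DSN1 -1.62 ± 0.17, NSL1 -0.47 ± 0.10, NDC80 -2.20 ± 0.24, NUF2 -3.34 ± 0.22, SPC24 -2.56 ± 0.34 and SPC25 -2.85 ± 0.86, the last a fitted value near the counting floor that lay between -5.95 (without combination replicate 2) and -2.28 (without combination replicate 3) when 1 library was left out. For the RZZ complex and the spindle checkpoint they were ZWILCH -2.22 ± 0.11, ZW10 -0.46 ± 0.09, KNTC1 -1.10 ± 0.15, BUB1 -3.41 ± 0.11, BUB1B -3.77 ± 0.15, BUB3 -0.26 ± 0.06, MAD1L1 -0.31 ± 0.08, MAD2L1 -3.25 ± 0.10 and TTK -3.94 ± 0.13. For the passenger complex, shugoshins and SKA complex they were AURKB -0.95 ± 0.29, INCENP -1.33 ± 0.07, BIRC5 -1.16 ± 0.17, CDCA8 -2.78 ± 0.13, SGO1 -2.90 ± 0.20, SGO2 -3.23 ± 0.11, SKA2 -0.99 ± 0.09 and SKA3 -2.53 ± 0.24. Every one of these 41 was below 0.

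Among other pathway genes, HJURP -3.57 ± 0.25, CENPX -1.30 ± 0.12, CDC20 -3.37 ± 0.11, ANAPC1 -0.94 ± 0.07 and SPAG5 -2.54 ± 0.13 were below 0 too. Of the genes higher with the combination, MAD2L1BP 0.47 ± 0.10, CDC26 0.60 ± 0.13 and CLIP1 0.45 ± 0.10, had interactions above 0, and none of these 3 passed the test with library size alone.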

How the results depend on the processing

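The counts of members called in the 6 comparisons stayed within 1.5 times under every alternative run, and no called member changed direction. Library size alone moved the median of all genes in the combination against untreated cells from 0.02 to -0.25. It moved that median to -0.26 against ATRA, to -0.28 against palbociclib and to -0.34 in the interaction. It moved the medians of all, cycling-dependent and constitutive members to -3.81, -5.24 and -1.51 against untreated cells, to -4.32, -5.58 and -1.41 against ATRA, to -1.91, -2.54 and -0.84 against palbociclib and to -1.94, -2.85 and -0.77 in the interaction, and the other pathway genes called higher to 2 against ATRA and 1 in the interaction. A minimum of 10 counts in every library left 34 members, without CENPA, CENPI, CENPM, NDC80, NUF2, SPC24, SPC25, AURKB and SKA3, and gave cycling-dependent medians of 0.062 with ATRA, -1.98 with palbociclib, -4.29 with the combination and -4.47 against ATRA, and medians of all members of -1.49 with palbociclib, -3.08 with the combination, -3.21 against ATRA, -1.32 against palbociclib and -1.37 in the interaction. The tested members that this filter dropped were at -5.39 or lower with the combination in the main fit. With the unclassed members joined, cycling-dependent medians were 0.067 with ATRA, -2.24 with palbociclib, -4.95 against ATRA and -2.22 in the interaction, and constitutive medians -0.89 with palbociclib, -1.96 with the combination and -1.29 against ATRA. Without a filter, constitutive medians were -1.35 with the combination and -0.66 against palbociclib. The cycling-dependent median with ATRA was 0.22 with DESeq2's size factors (0.223) and its Wald test (0.224), 0.23 with library size alone and 0.24 with only the groups compared. Without the members on more than 1 contig, the constitutive median with ATRA was 0.040 in place of -0.03, and the median of all members was -3.71 with the combination and -4.14 against ATRA. Leaving out 1 library moved the cycling-dependent median against palbociclib between -2.30 and -2.05, and that of all members against ATRA between -4.16 and -3.93. CENPT lost its interaction call (-0.44) without 8 of the 12 libraries in turn and in DESeq2, where its adjusted p was 0.06. CENPN lost it without palbociclib replicate 2 (-0.26), and PMF1 gained it with library size alone (-0.59). With library size alone MAD2L1BP (0.11) and CDC26 (0.15) lost their calls against ATRA. Replicate numbers did not pair the libraries, with correlations of -0.0702 to 0.0328 for the 18 pairs of the same number, and the replicate block gave 10 members called lower and 17 called higher with ATRA, against 10 and 18 without it, and the same counts as without it in the other comparisons. With library size alone, cycling-dependent and constitutive medians less the median of all genes were -4.99 and -1.26 in the combination against untreated cells. Scaling, test, genes or libraries differ between these settings by construction, and no other cause of the shifts was tested. Depth limited SPC25.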
